A study of Mus musculus with 2 samples.

Results

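The basal and stress keratins are 7 genes, *Krt5*, *Krt14*, *Krt15*, *Krt6a*, *Krt6b*, *Krt16* and *Krt17*, of 21244 genes that have a probe on the array and a symbol in the reference. They were chosen by name, as keratins of the basal layer and of wounded or hyperproliferative epithelium, and took in 9 probes. RNA came from incisor tooth germ of wild-type mice, given as C57BL/6J in the methods, and of *Sox21* knockout (*Sox21* KO) mice, with 1 Agilent one-colour array for each genotype and no other treatment in either group. The deposited labels give the age of both as postnatal day 0, whereas the methods give the day after. The tooth germ held epithelium and mesenchyme, and how many animals went into each RNA was not given in the sources used here. The *Sox21* KO line was a gift, and the study names for it the same source as for its reporter mice, in which GFP is knocked in at the *Sox21* locus. Per the methods, *Sox21* KO mice were kept on a soft diet. Each array thus described 1 RNA sample, and none of the differences below has a replicate check or a p-value.

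Keratins are the intermediate filament proteins of epithelial cells, and a filament needs a type I and a type II keratin together. *Krt5* (type II) and *Krt14* (type I) form the filaments of basal cells in stratified epithelia, and *Krt15* is a further type I keratin of basal cells, known also as a marker of the hair follicle bulge. *Krt6a* and *Krt6b* (type II) and their type I partners *Krt16* and *Krt17* are found in hair follicles and oral epithelium, and are induced in epidermis by wounding. Dental epithelium derives from oral ectoderm and is likewise rich in *Krt14*.

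The signal of a probe depends on the bases that it binds, so the probes that carry the results are shown first, 5′ to 3′ and in the sense of the mRNA. All 9 member probes have 60 bases and lie on the minus strand of mm9. The probe of *Krt15* (chr11:99993331-99993390) is shown because its gene differed most between the arrays among the 7, with the stop codon that ends it in capitals.
Krt15: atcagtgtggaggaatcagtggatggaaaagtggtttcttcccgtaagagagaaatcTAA
The probe of *Krt14* (chr11:100064683-100065288), of the other type I keratin of basal cells, spans 606 bases of the genome and so crosses an intron.
Krt14: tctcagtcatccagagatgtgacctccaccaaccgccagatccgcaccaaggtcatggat
The probe of *Krt6a* (chr15:101520862-101520921) runs from the end of the coding sequence past its stop codon. Its first 24 bases, up to that stop in capitals, are shown.
Krt6a: agcaagaagagctacaggcagTGA
The brighter probe of *Krt6b* (chr15:101509450-101509509) and the dimmer probe of *Krt5* (chr15:101542056-101542115) lie in matching parts of their coding sequences. They are shown to make visible how alike neighbouring type II keratins are, and capitals mark the bases shared by both.
Krt6b: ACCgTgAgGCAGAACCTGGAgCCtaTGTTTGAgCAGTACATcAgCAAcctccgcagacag
Krt5: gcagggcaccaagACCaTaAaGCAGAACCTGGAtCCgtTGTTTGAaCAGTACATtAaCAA
Of the 47 bases in which these probes overlap, 38 were identical. The array design lists the transcripts of both *Krt6a* and *Krt6b* for that brighter *Krt6b* probe, so its signal could not be assigned to either gene alone. The other *Krt6b* probe (chr15:101506492-101506551) lists *Krt6b* only, and the *Krt6a* probe lists *Krt6a* only.

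Signals are given here as the processed signal of the scanner software divided by the 75th percentile of its array, called the normalized signal. The percentile was 268 in wild-type and 276 in KO tooth germ. All 9 member probes were well above background by the scanner's own mark on both arrays, and none was saturated (0 spots). The scanner software's error amounted to between 0.204 and 0.219 on the log2 ratio of a member probe. For 274 probes spotted repeatedly, the SD of the log2 ratio of *Sox21* KO over wild-type among the spots of 1 probe was 0.09 in the median. Both errors are technical and leave out the spread between mice.

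The targeted gene and tooth markers were read on the arrays. *Sox21* had log2 ratios of -1.09 (brighter probe) and -1.51 (dimmer probe), and both probes stayed well above background on the KO array. Whether either lies in the deleted part of the gene was not given in the sources used here. All 9 markers of tooth germ on the list used, 8 of ameloblasts and *Dspp* of odontoblasts, were well above background on each array. Their median log2 ratio was -0.62, with 7 lower and 2 higher in the KO. *Slc24a4* at -2.27, *Amtn* at -1.89 and *Klk4* at -1.05 were lower by more than 2-fold. These genes are also in the study's own gene list, chosen on these arrays, and so are no independent check of the arrays. *Odam* was highest at 0.63, with 0.55 at its dimmer probe, and *Amelx*, of the main enamel matrix protein, had 0.08.

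Of the 7 keratins, 3 were higher by 2-fold or more in the *Sox21* KO, *Krt15*, *Krt6b* and *Krt6a*, and 0 were lower by that much. Among the 13803 genes measured on both arrays, that is, well above background on each, 0.739% were higher and 0.667% lower by 2-fold or more, 1.41% in all. At 1.5-fold or more by the brightest probe, *Krt16* joined these 3, against 3.19% of all measured genes that were higher and 2.98% that were lower. At 3-fold or more, *Krt15* was left, against 0.174% that were higher. The median log2 ratio of the 7 keratins was 0.77, beside 0.01 for all measured genes. By any amount, 6 of the 7 were higher and *Krt17* was lower, against 52.4% of all measured genes that were higher. The 3 genes past 2-fold are also in the study's own gene list, which was chosen on these arrays, and the count is therefore a description of these arrays and not independent evidence of a direction. The same holds for *Krt1*, *Krt10*, *Krt13*, *Krt23*, *Krt32*, *Aqp3*, *Calm4*, *Lgr5*, *Gjb2*, *Serpinb2* and *Eppk1*, named below, which that list also holds. The shares of all measured genes given here are likewise those to set beside the counts of other gene lists below.

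**Figure D1:**
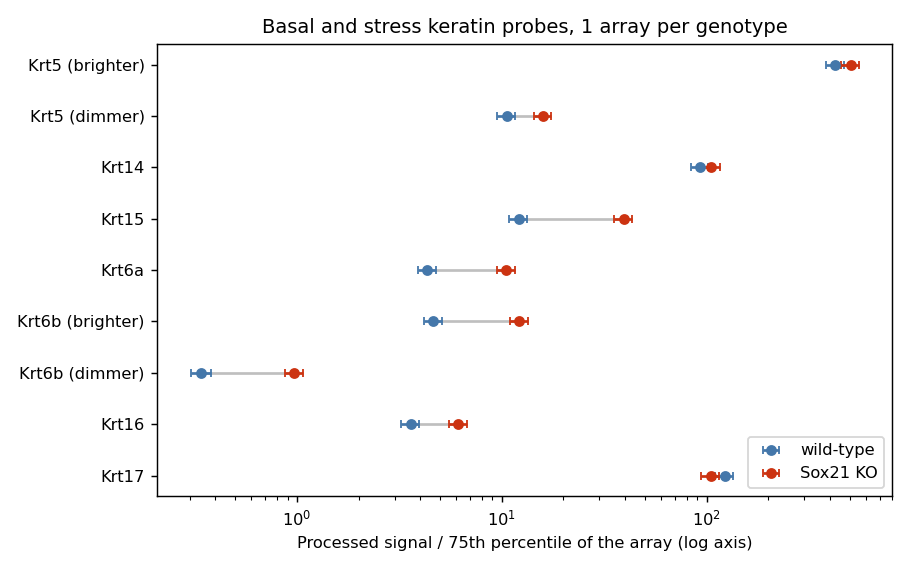
Normalized signal (log axis) of the 9 probes of the 7 keratins on the wild-type (blue) and *Sox21* KO (red) array. Points are 1 array each, bars are the scanner software's error, and grey lines join the arrays. The points lie apart beyond their bars for *Krt15*, *Krt6a*, *Krt6b*, *Krt16* and the dimmer *Krt5* probe, and the bars overlap for *Krt14*, *Krt17* and the brighter *Krt5* probe.

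Among the basal keratins, *Krt5* and *Krt14* each had a KO signal within 1.19-fold of the wild-type signal at their brightest probe, whereas *Krt15* was far higher in *Sox21* KO tooth germ. The normalized signal of *Krt15* was 12.1 ± 1.21 (scanner error) in wild-type and 39.4 ± 3.94 in KO tooth germ. It was 3.25-fold higher in the KO, with a log2 ratio of 1.70 that was the 19th highest of the 13803 measured genes and 8.34 times its own scanner error. The *Krt14* signal was 92.7 ± 9.27 in wild-type and 105 ± 10.5 in KO tooth germ, with a log2 ratio of 0.18, less than its scanner error. The log2 ratio of *Krt15* thus exceeded that of *Krt14* by 1.52, with a scanner error of 0.29 on the difference. Basal keratins did not share a single shift between these arrays.

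*Krt5*, the type II partner of *Krt14*, had probes at its 3′ end and in its coding sequence. The brighter probe, at the 3′ end (chr15:101537514-101537573), had a normalized signal of 425 ± 42.5 in wild-type and 504 ± 50.4 in KO tooth germ, a log2 ratio of 0.25. This was close to the ratio of *Krt14*, with a difference of 0.06 ± 0.29 (scanner error). The dimmer probe in the coding sequence went from 10.6 ± 1.06 to 15.9 ± 1.59, a log2 ratio of 0.59. The *Krt5* probes hence differed by 0.34, against a scanner error of 0.29 on that difference. Neither reached 2-fold, but the dimmer one, at 1.51-fold, passed 1.5-fold.

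*Krt6a* and *Krt6b*, the type II keratins of wounded epithelium, were higher in *Sox21* KO tooth germ at each of their 3 probes. *Krt6a* had a normalized signal of 4.33 ± 0.433 in wild-type and 10.5 ± 1.05 in KO tooth germ, a log2 ratio of 1.28. The *Krt6b* probe that lists both transcripts went from 4.64 ± 0.464 to 12.2 ± 1.22, with a log2 ratio of 1.39. The probe that lists *Krt6b* alone was dimmer and went from 0.342 ± 0.0386 to 0.972 ± 0.0985, with a log2 ratio of 1.51. Its ratio exceeded that of *Krt6a* by 0.23, less than the scanner error of 0.30 on the difference. By the transcripts that the design lists, *Krt6b* thus had a ratio past 2-fold without the shared probe, and the arrays did not separate its size from that of *Krt6a*. The *Krt6b*-only probe shared 26 of 33 overlapping bases with a probe of the array that has no gene name. Whether a keratin probe also binds transcripts beyond those listed was not tested.

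The type I stress keratins differed from each other. *Krt16* (chr11:100107408-100107467), the usual partner of keratin 6, had a normalized signal of 3.60 ± 0.360 in wild-type and 6.13 ± 0.614 in KO tooth germ. Its log2 ratio of 0.77, a 1.70-fold difference, stayed under 2-fold but was 3.77 times its scanner error. It lay below the ratio of *Krt6a* by 0.51, with a scanner error of 0.29. *Krt17* (chr11:100117535-100117594), which is expressed in the outer root sheath and in developing ectodermal appendages as well as in wounds, was the exception among the 7. Its normalized signal was 122 ± 12.2 in wild-type and 105 ± 10.5 in KO tooth germ, a log2 ratio of -0.22, about as large as its scanner error. The ratio of *Krt16*, its type I fellow, exceeded that of *Krt17* by 0.99 ± 0.29 (scanner error).

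The ratios of the keratins were next read against those of genes of like brightness. *Krt5*, *Krt14* and *Krt17* were among the 524 measured genes with a mean log2 normalized signal of 6 or more, in which the 5th and 95th percentiles of the log2 ratio were -0.35 and 0.21. Of these 3 keratins, only *Krt5* at 0.25 lay outside that range. *Krt15*, *Krt6a*, *Krt6b* and *Krt16* were among the 4053 genes with a mean log2 signal from 2 to 5, where those percentiles were -0.37 and 0.35. All 4 lay above that range.

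**Figure D2:**
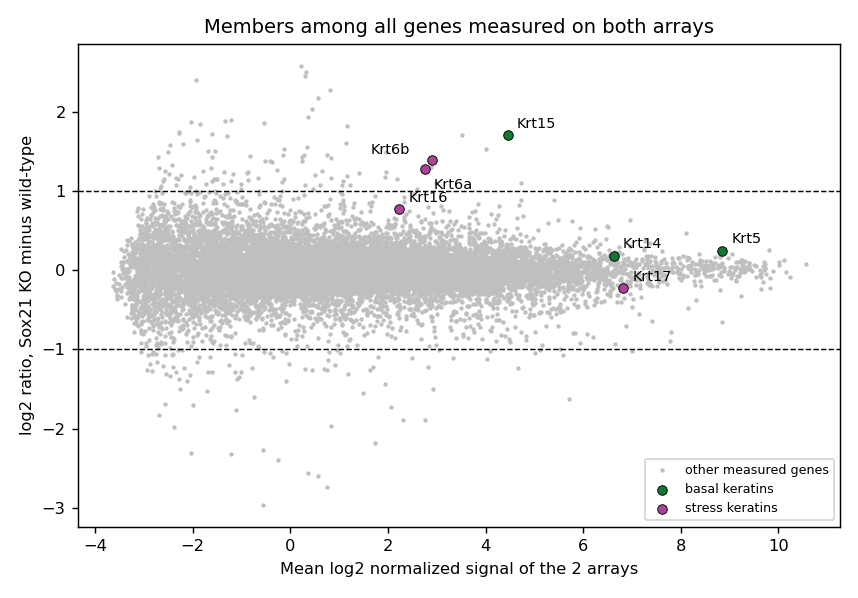
Log2 ratio (*Sox21* KO minus wild-type) against the mean log2 normalized signal of the 2 arrays for the 13803 measured genes, 1 probe a gene, with basal keratins in green and stress keratins in purple. Dashed lines mark 2-fold. *Krt15*, *Krt6b* and *Krt6a* lie above the upper line, *Krt16* below it at 0.77, and the bright genes *Krt5*, *Krt14* and *Krt17* between -0.22 and 0.25.

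The members sit in the keratin gene clusters of chromosome 11 (type I) and chromosome 15 (type II), and their neighbours in gene order were compared. *Krt6b*, *Krt6a* and *Krt5* follow each other on chromosome 15, flanked by *Krt75*, a keratin of the hair follicle's companion layer, with a log2 ratio of 0.06. On their other side lies *Krt71*, of the inner root sheath. It was well above background in the wild type only, at least 2.34-fold higher there. On chromosome 11, *Krt15* lies between *Krt13*, a keratin of oral mucosa, and *Krt19*, a keratin of simple epithelium and of stem cell compartments. *Krt19* had a log2 ratio of 0.87, and *Krt13* gave 0.56 by its brighter and 1.94 by its dimmer probe. *Krt9*, a keratin of palm and sole epidermis, lies next to *Krt14* and had 0.83. *Krt14*, *Krt16* and *Krt17* follow each other there, and *Krt42* beyond *Krt17* had 0.29. Adjoining genes thus ranged from near 0 to past 2-fold in both clusters. Leaving out the members, 13 measured keratin genes of chromosome 11 had a median log2 ratio of 0.39 and 12 of chromosome 15 a median of 0.21.

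**Figure D3:**
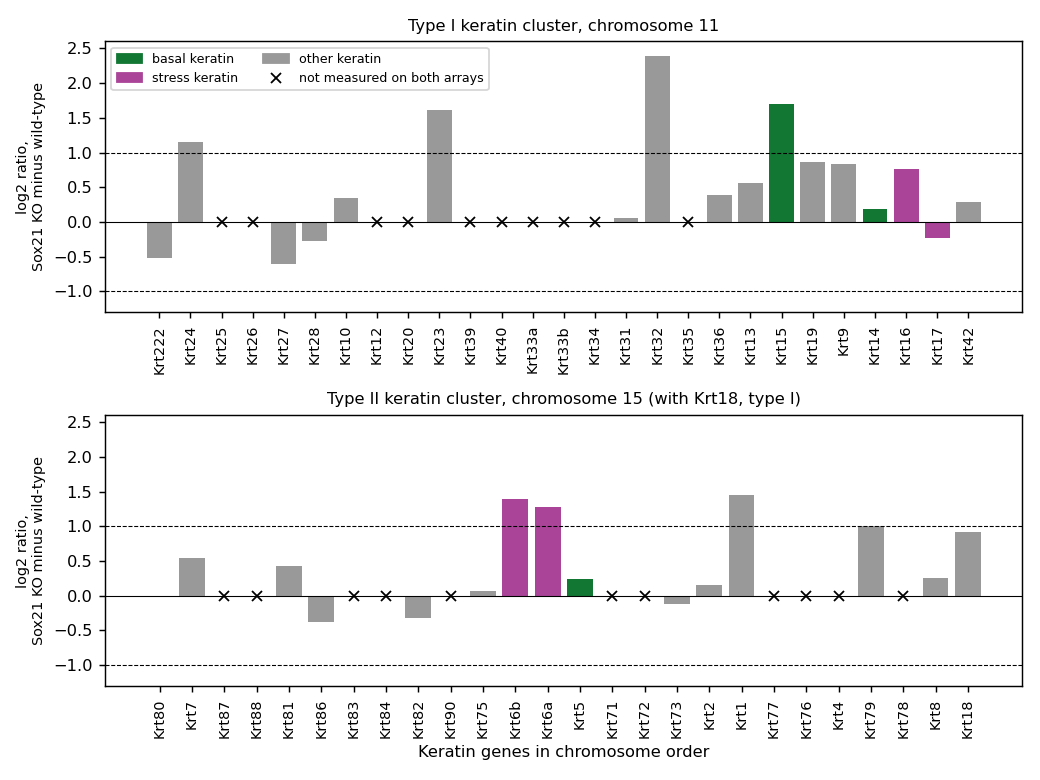
Log2 ratio (*Sox21* KO minus wild-type) of the keratin genes in their order on chromosome 11 (top) and chromosome 15 (bottom, with *Krt18*, of type I), for basal keratins (green), stress keratins (purple) and other keratins (grey). Crosses are genes not well above background on both arrays or without a probe, and dashed lines mark 2-fold. High bars stand beside low ones, as *Krt15* at 1.70 near *Krt14* at 0.18, and *Krt6a* at 1.28 beside *Krt5* at 0.25.

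Other keratin classes were set beside the members by their counts. Of 11 suprabasal keratins of epidermis and oral mucosa, 7 were measured, their median log2 ratio was 0.56, and 2 of them, *Krt1* at 1.45 and *Krt24* at 1.16, were higher by more than 2-fold at their brightest probe. The lowest was *Krt80* at -0.01. Probes disagreed for *Krt10*, with 0.34 at the brighter and 1.84 at the dimmer one, as for *Krt13* above, so that 4 of the 7 were past 2-fold at some probe. *Krt4* and *Krt78*, also of this class, were well above background in the KO only. The KO signal of *Krt4* was at least 7.81-fold higher, taken against the larger of its own wild-type signal and the lowest one marked as well above background. Of 6 simple epithelial keratins, 5 were measured, with a median of 0.87, from 0.25 for *Krt8* to 1.61 for *Krt23*. The 11 measured of 25 hair keratins had a median of 0.05, from -0.60 for *Krt27* to 2.40 for *Krt32*. *Krt32* was the only one of the 11 at least 2-fold higher, and *Krt79* came just short of it at 0.9988. The wild-type signal of *Krt32*, 0.113, was near 0.0796, the lowest marked as well above background on that array. *Krt71*, also of this class, was well above background in the wild type only, as given above. *Krt85*, of the hair shaft, kept the name given in the file because it had no match in the reference and was left out of the 11; its probes had 0.37 and 0.21. High ratios were thus not particular to the basal and stress keratins among keratins.

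Genes that mark the basal layer beside its keratins went both ways. All 20 genes of that list were measured, 10 had a higher and 10 a lower signal in the KO, and their median log2 ratio was 0.03. *Aqp3*, a water and glycerol channel, was at least 2-fold higher, with a normalized signal of 4.69 in wild-type and 11.6 in KO tooth germ and a log2 ratio of 1.31. *Lgals7*, a galectin of stratified epithelia, also passed 2-fold, with 5.43 in wild-type and 11.7 in KO tooth germ. *Bnc1*, a zinc finger protein of basal keratinocytes, had the lowest ratio, -0.95. *Trp63*, the transcription factor that sets up stratified epithelia, had 0.22 at its brightest probe and down to -0.68 over its 4 probes, and the hemidesmosome integrin genes *Itga6* and *Itgb4* had 0.13 and -0.20. The genes of this list thus ranged from nearly 2-fold lower to more than 2-fold higher.

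Genes that accompany keratins 6, 16 and 17 in wounded epidermis were dim for the most part. Of 29 such genes, 15 were measured, 11 with a higher and 4 with a lower signal in the KO, and their median log2 ratio was 0.72. At least 2-fold higher were *Sprr3* at 1.59, *Slpi*, a protease inhibitor, at 1.43, *Gjb2*, a connexin, at 1.38 and *Serpinb2* at 1.30. *Sprr1b*, a cornified envelope precursor, was well above background in the KO only, where it was at least 4.91-fold higher. *Fosl1*, an AP-1 subunit, was also above background in the KO only, at least 1.51-fold higher, and *Il24*, a cytokine, in the wild type only, at least 1.16-fold higher there. The alarmins *S100a8* and *S100a9*, strongly induced in wounds, had -0.08 and -0.02, and the lowest ratio was that of *Areg*, an epidermal growth factor receptor ligand, at -0.26. The interleukin genes *Il1a* and *Il1b* were not well above background on either array. The list therefore held genes past 2-fold beside well-known wound genes whose ratio was near 0.

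**Figure D4:**
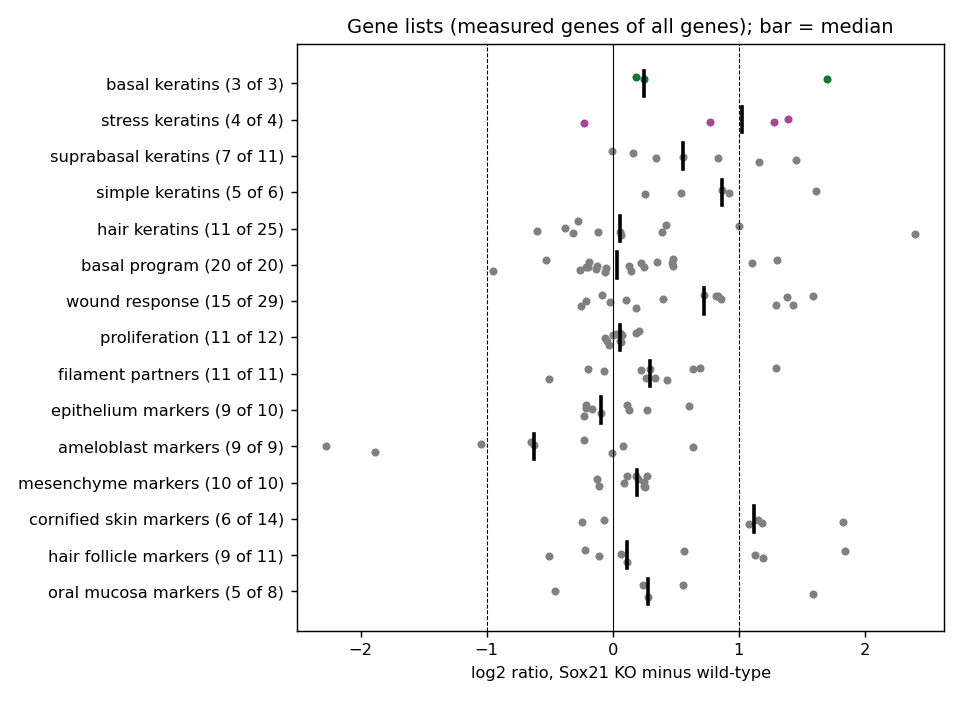
Log2 ratio (*Sox21* KO minus wild-type) of the measured genes of each list, with 1 point a gene, the list's median as a black bar and dashed lines at 2-fold. Labels give the number of measured genes and of all genes in the list. The stress keratins and the wound response list have medians of 1.02 and 0.72, the basal program 0.03 and the epithelium markers -0.09.

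Markers of cells that the tooth germ or its surroundings could hold were read beside these values. In a bulk sample, fewer cells of a type and less RNA per cell cannot be told apart. Of 10 general epithelium markers, 9 were measured, with a median log2 ratio of -0.09, and their summed normalized signal was 33.5 on the wild-type and 34.7 on the KO array. The lowest was *Cldn7* at -0.23 and the highest *Grhl2* at 0.61 by the brightest probe of each gene, and the probes of *Esrp1* disagreed, from -0.21 to 0.76. All 10 mesenchyme markers were measured, with a median of 0.19, from -0.12 for *Col3a1* to 0.27 for *Pdgfrb*, and sums of 1606 and 1791. Of 14 markers of cornified skin, 6 were measured, 4 of them at least 2-fold higher, *Calm4* at 1.82, *Krtdap* at 1.18, *Lor* at 1.15 and *Cdsn* at 1.08, and *Casp14* was lowest at -0.25. The summed signal of these 6 genes went from 11.1 to 21.1. Of the remaining skin markers, 2 were well above background on the KO array only, *Flg*, at least 5.18-fold higher, and *Lce1a1*, at least 1.03-fold higher, and 6 on neither array, among them *Ivl* and *Flg2*. Of 8 oral mucosa markers, 5 were measured, with sums of 10.8 and 15.6, from *Crnn* at -0.46 to *Sprr3* at 1.59, the only one of the 5 past 2-fold at its brightest probe. *Krt13* passed 2-fold at its dimmer probe, and *Krt4*, also on this list, was well above background in the KO only, as given above. Of 11 hair follicle markers, 9 were measured, with a median of 0.11 and sums of 24.6 and 28.5. *Lgr5* at 1.84, *Dsc2* at 1.19 and *Foxn1* at 1.13 were at least 2-fold higher, *Padi3* was lowest at -0.50, and *Dsg4* and *Hoxc13* were not well above background on either array. Higher in the KO by any amount were 4 of 6 measured markers of cornified skin, 4 of 5 of oral mucosa, 6 of 9 of the hair follicle, 8 of 10 of mesenchyme and 4 of 9 of epithelium in general. The part of such cells in the values of *Krt15*, *Krt6a* and *Krt6b* was not tested.

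The ratios of the members were recomputed under alternative scalings, background corrections, filters and choices of probe. *Krt15*, *Krt6a* and *Krt6b* stayed past 2-fold under each of them, with log2 ratios from 1.67 to 1.80, from 1.24 to 1.37 and from 1.32 to 1.51. Under the alternative scalings and background corrections, *Krt6b* was read by the probe that lists both transcripts. The probe that lists *Krt6b* alone was not recomputed under those settings. *Krt16* ranged from 0.72 to 0.87 and stayed under 2-fold, and *Krt17* ranged from -0.24 to -0.13. *Krt14* ranged from 0.17 to 0.28. The widest range among the 7 was that of *Krt5*, from 0.23 to 0.59, whose upper end came from its dimmer probe.

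**Figure D5:**
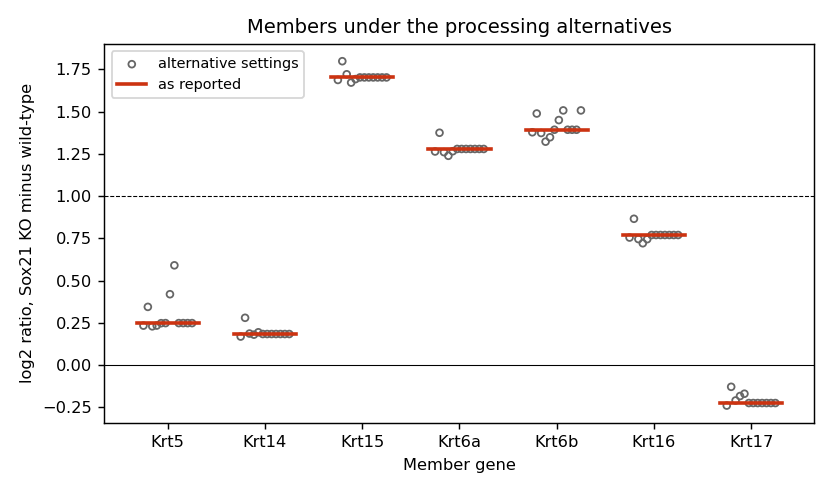
Log2 ratio (*Sox21* KO minus wild-type) of each of the 7 keratins as reported (red bar) and under the 12 alternatives that give a value for a gene (open circles), with dashed line at 2-fold. No keratin changes sign or crosses the 2-fold line, and *Krt5* has the widest range, from 0.23 to 0.59.

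Promoter windows of RefSeq (GRCm38.p6), from 250 bases before to 50 bases after a start, were given for *Krt5* and *Krt14*, 2 of the 7 members. Neither window held TGANTCA (the AP-1 site), ACAATG or ACAAAG (cores of Sox sites) or TATAAA on either strand. These letters occur in 7.81%, 12.6%, 18.7% and 13.6% of all 32851 such windows.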

How the data were processed

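RNA of 1 wild-type and 1 *Sox21* KO incisor tooth germ sample was measured on Agilent SurePrint G3 arrays. The authors labelled RNA with Cy3, and the deposited files hold, per spot, a processed signal intensity made by Agilent Feature Extraction 10.7.3.1, with its background removed within the array, and the raw mean and background intensity. A second deposited table holds ratios, each processed signal over 1 number per array (268 and 276), checked against the scanner files to a relative difference of 1.37e-06. Its column medians were 0.0756 and 0.0707. Its scale is thus linear, and no centring of genes was found.

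Here, each signal was divided by the 75th percentile of its array over all 62976 spots, log2 values were averaged over spots of a probe, and the log2 ratio is the *Sox21* KO value less the wild-type value, without 267 outlier spots. Gene names came from RefSeq (GRCm38.p6), matched for 26298 of 55679 probes by accession, 2044 by symbol and 355 by older symbol. For a gene, the brightest probe well above background on both arrays was used, and every probe of a member is given. Named genes are the members with every probe, *Sox21*, keratins adjoining a member, and in each list the measured genes with the highest and lowest ratio and those past 2-fold. Some further list genes (*Amelx*, *Dspp*, *Krt10*, *Krt18*, *Krt85*, *Lce1a1*, *Fosl1*, *Il24*, *Birc5*, *Ccnb1*, *Esrp1*, *Trp63*, *Itga6*, *Itgb4*, *S100a8*, *S100a9*, *Il1a*, *Il1b*, *Ivl*, *Flg2*, *Dsg4*, *Hoxc13*, *Dsp* and *Vim*) were chosen after their values were seen. The members and lists were chosen with earlier results of these data known. With 1 array per genotype no test was run, and the precision is limited by the number of arrays. The code was checked on simulated data, which says nothing of how often unchanged genes differ by 2-fold between single arrays. Python 3.11.15, numpy 2.4.6, pandas 2.3.3, matplotlib 3.10.9, R 4.3.3 and limma 3.58.1 were used.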

Additional observations from a re-analysis of the deposited data

How the results depend on the processing

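The number of members at least 2-fold apart stayed at 3 under each scaling, background correction, filter and probe choice, and became 1, *Krt15*, at a threshold of 3-fold and 4 at 1.5-fold. The median log2 ratio of the members moved by more than the SD among repeat spots only under the median shift, to 0.87, a scaling that raised the median of all measured genes from 0.01 to 0.11. The use of *Krt6b* through the probe that lists its transcript alone was chosen after seeing the data, and gave a log2 ratio of 1.51 for it and left both results as they were. Counted at any probe well above background on both arrays, also chosen after seeing the data, 4 in place of 2 suprabasal keratins and 2 in place of 1 oral mucosa markers were at least 2-fold higher, and the counts past 2-fold of the other lists did not change. Over the 13803 measured genes, the number at least 2-fold higher was 102 (0.739%). It was 46 (0.333%) under the normal-exponential background correction (offset 50) and 53 (0.384%) with no background removed. With the weaker mark of signal over background it was 293 of 15924 genes (1.84%), and without any 508 of 21244 (2.39%). The number at least 2-fold lower was 92, and became 40, 49, 321 and 695 under the same settings. Under the median shift these counts were 135 and 63. No replicate could be left out and no paired analysis was possible because each genotype has 1 array. Dim genes of the wound and skin lists, many of them not well above background, are limited by signal, and the members are not.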

Other observations

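Proteins that anchor or bind keratin filaments, and the other intermediate filament genes *Vim* and *Des*, were not among the comparisons above. All 11 genes of this mixed list were measured, 8 with a higher and 3 with a lower signal in the KO, and their median log2 ratio was 0.29. *Eppk1*, which encodes epiplakin, a plakin that binds keratin filaments, was the only one at least 2-fold higher, with a normalized signal of 4.29 in wild-type and 10.5 in KO tooth germ and a log2 ratio of 1.29. *Dsp*, the desmosomal linker of keratin filaments, had 0.69. *Vim*, the intermediate filament of mesenchyme, had 0.29, and *Des*, that of muscle, was lowest at -0.51.

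Of 12 genes of dividing cells, 11 were measured, with a median log2 ratio of 0.05, from -0.06 for *Cdk1* to 0.21 for *Top2a* at the brightest probe of each gene. Other probes reached -0.24 for *Birc5* and 0.50 for *Ccnb1*, and 0 were 2-fold apart at any probe.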
